A study of Mus musculus with 66 samples.

Results

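The 48 genes described here copy DNA or supply its building blocks, and they were followed in mouse small intestinal organoids, self-organising cultures of the gut epithelium, grown in 3 media. Members were picked by symbol: the Mcm, Orc, Rfc, Gins and Rpa genes, the numbered subunit genes of DNA polymerases alpha, delta and epsilon, the primase genes, and Pcna, Fen1, Lig1, Cdc45, Dut, Rrm1, Rrm2, Tyms, Tk1, Top1 and Rnaseh2a. Each was represented by 1 RefSeq transcript, so that they made up 48 of the 9481 transcripts and 48 of the 8978 gene symbols in the RNA table. No row carried the symbol Cdc6, a further gene of the choice, which was not analysed here. The transcript index had been restricted to transcripts whose proteins were quantified by mass spectrometry, so other replication genes may lie outside the table.

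All organoids carried the Lgr5-GFP-DTR allele in 1 copy, which marks Lgr5+ stem cells with GFP and a diphtheria toxin receptor. ENR organoids grew in the regular medium with EGF, Noggin and R-Spondin. CV organoids grew in ENR medium with 3 µM CHIR99021, a GSK3 inhibitor that activates Wnt signalling, and 1 mM valproic acid, which also inhibits histone deacetylases, and were kept in their medium longer than EN organoids. EN organoids grew without R-Spondin, a Wnt enhancer, and are depleted of stem cells. RNA-seq and ATAC-seq, which reads open chromatin by transposase insertion, had 4 libraries per culture, and ChIPmentation of H3K27ac, H3K4me3 and H3K27me3 had 3 columns of values per culture and mark. Nothing in the labels says that replicates were separate cultures, so p-values measure the spread between these libraries, which may be technical.

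Replication is prepared in G1, when the origin recognition complex and Cdc6 help load the Mcm2 to Mcm7 ring onto DNA as an inactive helicase. In S phase Cdc45 and the GINS complex join the ring to make the active helicase, primase and polymerase alpha lay down primers, and polymerases epsilon and delta extend the strands on the sliding clamp Pcna, which the Rfc loader places on DNA. Ribonucleotide reductase, thymidylate synthase, thymidine kinase and dUTPase supply deoxynucleotides. Many of these genes are classical E2F targets, and in the intestine their expression is known to mark the dividing stem and transit-amplifying cells of the crypt.

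Promoters of the genes at both ends of the range of change between EN and CV are shown first. Mcm3 and Pole2 had the largest falls among the members with a promoter sequence, and Pold4 the smallest change. The place of Pole2 rests on its fitted value, which depends on the prior count, as EN was at the counting floor; members such as Prim1 and Mcm2 may have fallen more. The sequences are RefSeq's for GRCm38.p6, read 5′ to 3′ on the gene's strand from 250 bases before the annotated start to 30 bases after it, with E2F type and CCAAT motifs in capitals. A motif on the opposite strand appears as its reverse complement.
Mcm3, chromosome 1, 20820283 to 20820562, minus strand: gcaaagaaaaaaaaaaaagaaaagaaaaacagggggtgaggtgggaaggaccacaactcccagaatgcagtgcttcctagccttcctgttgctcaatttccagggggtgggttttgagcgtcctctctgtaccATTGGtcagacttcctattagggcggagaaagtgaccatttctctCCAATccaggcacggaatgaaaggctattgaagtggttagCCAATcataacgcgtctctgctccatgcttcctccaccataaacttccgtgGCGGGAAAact
Pole2, chromosome 12, 69228161 to 69228440, minus strand: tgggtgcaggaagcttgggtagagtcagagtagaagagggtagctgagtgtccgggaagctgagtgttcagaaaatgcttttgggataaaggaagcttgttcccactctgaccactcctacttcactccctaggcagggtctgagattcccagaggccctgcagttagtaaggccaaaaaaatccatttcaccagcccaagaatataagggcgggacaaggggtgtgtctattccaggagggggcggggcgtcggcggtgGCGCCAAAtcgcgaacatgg
Pold4, chromosome 19, 4231643 to 4231922, plus strand: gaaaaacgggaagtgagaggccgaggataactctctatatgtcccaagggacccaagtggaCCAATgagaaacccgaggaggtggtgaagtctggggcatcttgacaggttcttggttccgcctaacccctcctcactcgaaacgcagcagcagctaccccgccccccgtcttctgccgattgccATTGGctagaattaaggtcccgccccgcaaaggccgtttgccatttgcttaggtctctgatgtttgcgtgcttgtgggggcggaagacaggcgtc

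The Mcm3 window held CCAAT motifs ending 113, 68 and 28 bases before the start and, on the opposite strand, TTTCCCGC from base 20 to 27 after it. A further E2F type motif, TTTGGCGC, lay from base 39 to 46 of Mcm3, past the printed stretch. The Pole2 window held TTTGGCGC on the opposite strand, from base 11 to 18 after the start. Pold4 had a pair of CCAAT motifs and none of the E2F letters searched. These matches describe the letters and say nothing of binding.

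Over the 42 members with a promoter entry of 300 bases, 15 (35.7%) held at least 1 of the E2F type motifs TTTGGCGC, TTTCCCGC, TTTCGCGC or TTTGCCGC on either strand, against 704 of 27025 genes (2.6%) in the whole table. The whole promoter table is not limited to the genes of the RNA table, for which no share was counted. CCAAT, the NF-Y type motif, was in 26 members (61.9%) and 41.1% of all genes. TTTGAA, the CHR type motif, was in 5 members (11.9%) and 20.2% of all genes. Motifs of different types overlapped in 1 of the 51 promoters of these members, and 7 members had more than 1 promoter entry, in which case a match in any of them counted. The single letters differed: TTTCCCGC was in 8 members, TTTGGCGC and TTTCGCGC in 6 each, and TTTGCCGC in none. The 15 members with an E2F type motif had a median log2 fold change between EN and CV of -3.14 (range -6.36 to -0.20), or -2.99 with Orc1 and Pole2 at their bounds, and the 27 without one had -1.78 (range -5.30 to 0.25). The ranges overlapped widely: Prim1, Mcm2 and Rrm2 fell strongly without these letters in their windows, and Pole4, which has them, was at -0.20.

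RNA libraries held 5630951 to 8859744 expected counts without spike-ins, and values are given as CPM after TMM scaling, that is counts relative to the library total. Calls come from edgeR's quasi-likelihood test on rounded counts, fitted over all 12 libraries, at a Benjamini-Hochberg adjusted p under 0.01 over 9288 transcripts, and all 48 members were among those tested. The smallest count taken to show a transcript, 3, corresponded to 0.361 to 0.642 CPM. All 7 stem cell markers were lower in EN than in CV and all 8 enterocyte markers were higher. The summed stem cell markers were lower in CV (634 to 684 CPM) than in ENR (1766 to 1918 CPM). Olfm4 alone made this gap, at 10.9 CPM in CV and 1229 CPM in ENR. Without it the summed markers were not lower in CV. By imaging of Lgr5-GFP the paper reports stem cells as the main cell type in CV. It also reports stem cell markers as enriched in CV and depleted in EN, in mRNA and in protein. On counts Lgr5 (-0.52), Smoc2 (-0.20) and Axin2 (-0.22) were also lower in CV than in ENR in log2 terms, Cd44 and Sox9 were higher, and Ascl2 was not called. The median of the stem cell markers between CV and ENR, -0.22 on counts, depends on the scaling. It was -0.31 with spike-in library sizes and -0.05 on log2(TPM + 5). Markers of other cell types moved as well. Between EN and CV all 5 goblet, 3 enteroendocrine and 2 tuft cell transcripts measured were higher, with median log2 fold changes of 3.42, 6.34 and 5.52, and of 6 Paneth cell transcripts 5 were lower and 1, Defa6, higher (median -1.30). In CV the goblet, enteroendocrine and tuft cell transcripts were all lower than in ENR, with medians of -2.22, -4.21 and -4.20. The part of these markers in the members' results was not tested.

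DNA replication and nucleotide supply genes fell almost as a whole in EN. Between EN and CV, 44 of 48 were lower and none was higher, where 41.2% of all transcripts tested were lower and 35.2% higher. Between EN and ENR, 47 were lower and 1, Pold4, was higher, where the shares over all transcripts were 37.2% and 35.5%. On the mRNA copies deposited by the authors fewer were lower, 31 against CV and 32 against ENR. The shares of all transcripts lower on copies were 12.9% and 8.01%. The 2 comparisons share the EN libraries. The median log2 fold change of the members was -2.10 between EN and CV, with all transcripts at -0.08, and -2.81 between EN and ENR, with all transcripts at -0.01. Both members' medians were the same to 2 decimals with Orc1 and Pole2, which sat at the counting floor in EN, set to their bounds. In all 4 EN libraries 45 members lay below every CV library and 47 below every ENR library. The share of all transcripts with such a separation was not counted, so these counts describe the members only.

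CV and ENR also differed, by less. In CV 34 members were lower than in ENR and 5 were higher (Orc2, Orc3, Orc4, Pold4 and Rpa1), where 29.8% of all transcripts were lower and 30.2% higher. The median of the members was -0.56 and that of all transcripts -0.01. The order ENR, then CV, then EN, with both steps called, held for 31 members on these counts. The CV and ENR calls depend on the scaling. On the mRNA copies deposited by the authors 6 members were lower and 1, Pold4, higher, beside 4.27% and 13.6% of all transcripts. Summed copies ranged from 498750 to 1577575 over the ENR libraries. With spike-in library sizes 25 members were lower and 0 higher, beside 17.2% and 11.2% of all transcripts. On counts another 9, Gins3, Pcna, Rfc1, Pold2, Pold3, Pole3, Prim2, Top1 and Rrm2, were not called between CV and ENR and were lower in EN than in both. Orc2, Orc3, Orc4 and Rpa1 were highest in CV. Mcm9, Pold4, Pole4 and Tyms, the members not called between EN and CV, followed none of these orders.

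As a share of each library the members took 0.296% to 0.307% of counts in CV, 0.389% to 0.411% in ENR and 0.0651% to 0.0686% in EN. In bulk organoids fewer dividing cells and less RNA per cell cannot be told apart. Scaling matters for the members that changed least. On the mRNA copies deposited by the authors, which are set from spike-ins, the median of all transcripts between EN and CV was 0.62, under spike-in library sizes -0.49 and on log2(TPM + 1) -0.34. Against those medians the members stood at -1.23, -2.52 and -2.11, with 31, 46 and 47 lower and 2, 0 and 0 higher (all transcripts: 12.9%, 46.2% and 53.6% lower). The 2 higher on copies were Pold4 and Mcm9, and Pola2, Top1, Pole3, Gins4 and Orc4, which were lower on counts, had positive differences on copies with no call. Between EN and ENR copies put 32 members lower and 2, Pold4 and Orc4, higher, with a members' median of -1.545. Of all transcripts 8.01% were lower and 57.8% higher there. With spike-in library sizes 47 members were lower and 0 higher between EN and ENR, beside 46.0% and 11.8% of all transcripts. Between CV and ENR log2(TPM + 1) put 39.7% of all transcripts higher and 20.5% lower.

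**Figure D1:**
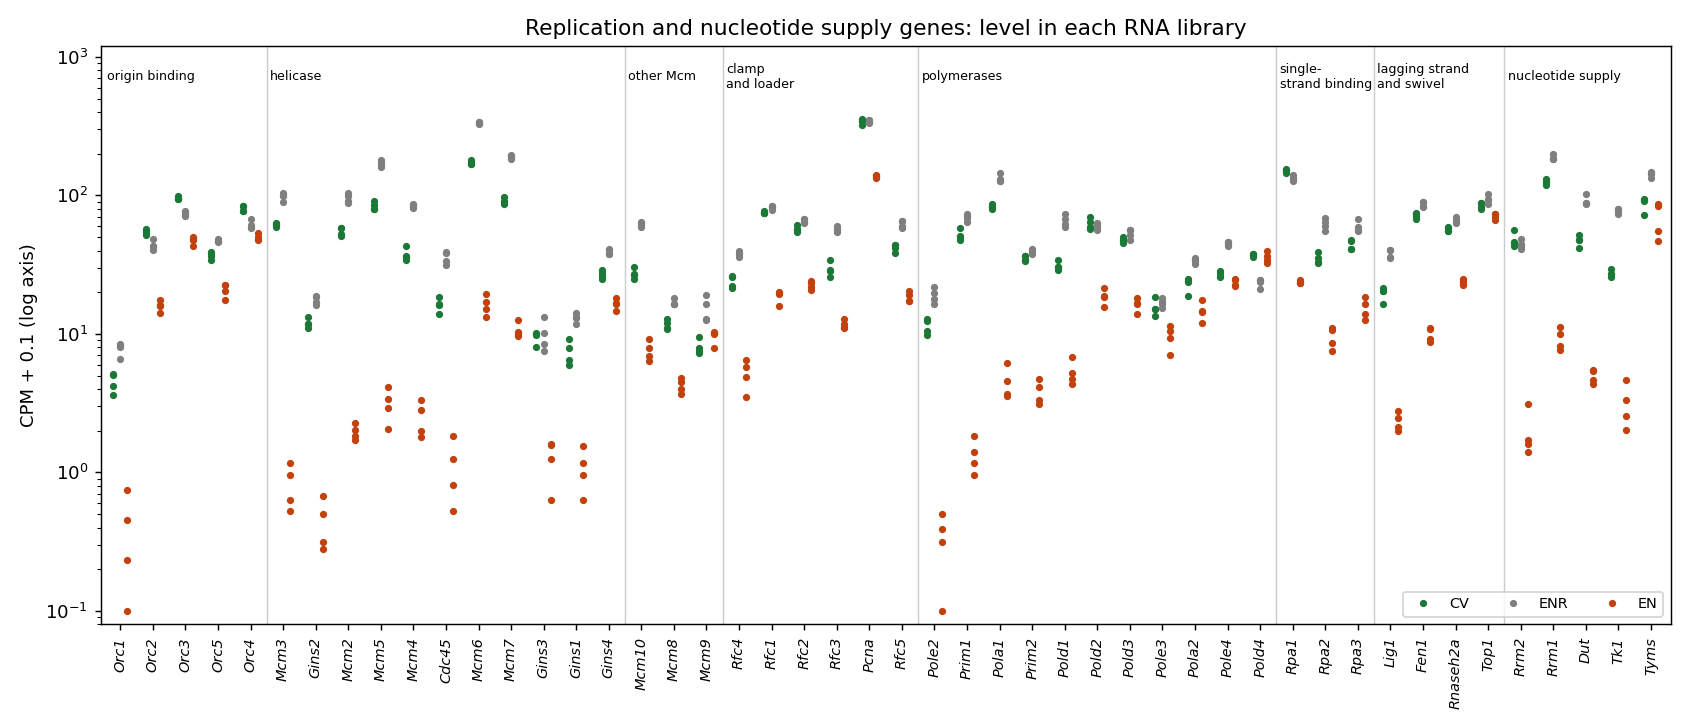
Level of each of the 48 genes in every RNA library, as CPM + 0.1 on a log axis, with 4 points per culture (CV green, ENR grey, EN orange) and genes grouped by role. The EN points lie lowest for most genes, down to 0 counts in 1 library for Orc1 and for Pole2. Pold4, Mcm9, Tyms and Top1 stay near the CV points. On mRNA copies Pold4, Mcm9 and Top1 were higher in EN than in CV, without a call for Top1. With spike-in library sizes no gene had a positive difference.

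The Mcm2 to Mcm7 genes encode the 6 subunits of the helicase ring. Values are given in the order of replicates 1 to 4. Mcm2 was at 57.9, 52.5, 51.0 and 58.2 CPM in CV, 99.0, 104, 91.7 and 88.6 in ENR and 1.74, 1.93, 1.61 and 2.16 in EN. Mcm3 was at 59.3, 62.3, 61.5 and 62.9 in CV, 99.9, 99.0, 89.7 and 104 in ENR and 0.536, 0.428, 1.07 and 0.864 in EN, the last from 2 to 6 counts per library. The cultures did not overlap for either gene, and the EN level rested on few reads. Mcm4 was at 33.8, 35.8, 36.2 and 43.3 CPM in CV, 86.2, 82.1, 80.9 and 85.3 in ENR and 1.88, 1.71, 3.21 and 2.74 in EN. Mcm5 was at 79.2, 80.0, 85.5 and 90.5 in CV, 172, 179.7, 159 and 166 in ENR and 2.81, 4.07, 1.96 and 3.31 in EN. Both kept the order ENR, CV, EN in every library. For Mcm6, the most abundant of them per length, the values were 169.8, 168, 173 and 180.5 CPM in CV, 326, 338, 338 and 335 in ENR and 16.9, 15.0, 13.2 and 19.3 in EN. Mcm7 was at 91.1, 86.8, 89.1 and 98.0 in CV, 182, 195, 191 and 189.6 in ENR and 9.92, 12.4, 10.2 and 9.50 in EN. EN was again lowest and ENR highest without overlap.

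Log2 fold changes between EN and CV ran from -6.36 for Mcm3 through -4.87 for Mcm2, -4.80 for Mcm5, -3.95 for Mcm4 and -3.40 for Mcm6 to -3.14 for Mcm7 (SE from 0.07 to 0.14). The adjusted p values in edgeR's quasi-likelihood test lay between 4.3e-13 for Mcm4 and 8.1e-16 for Mcm3. Between CV and ENR the same genes differed by -1.16 (Mcm4) to -0.67 (Mcm3), with SE from 0.05 to 0.08 and all called. The ring's summed level was 283 ± 14.3 TPM (SD, n = 4) in CV, 492 ± 9.54 in ENR and 16.4 ± 1.25 in EN. Its make-up shifted as well: Mcm3 held 12.6% ± 0.467 of the summed TPM in CV and 2.09% ± 0.960 in EN, and Mcm7 22.9% ± 0.393 and 36.5% ± 4.71. Such a share is taken within a library, so no scaling between libraries enters it.

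Cdc45 and the GINS genes turn the loaded ring into a running helicase. All 5 were lower in EN than in CV, with log2 fold changes of -4.97 for Gins2, -3.88 for Cdc45, -2.99 for Gins3, -2.88 for Gins1 and -0.71 for Gins4. Gins4 stood apart from its partners. It was at 28.7, 24.7, 27.6 and 26.3 CPM in CV, 40.1, 38.0, 37.7 and 40.8 in ENR and 17.96, 16.7, 14.4 and 16.4 in EN, while Gins2 was at 11.7, 10.9, 11.7 and 13.3, 18.6, 16.0, 18.4 and 17.0 and 0.402, 0.214, 0.178 and 0.576 CPM. The 2 genes fell to very different levels, 78 to 134 counts per EN library for Gins4 and 1 to 4 for Gins2. Gins4 held 46.2% ± 2.79 (SD, n = 4) of the summed GINS TPM in CV, 45.5% ± 1.56 in ENR and 86.8% ± 2.68 in EN, where its lowest EN share, 83.1%, was above its highest in the other cultures. The fall of Gins4 between CV and EN on counts, -0.71 (adjusted p = 6.8e-07, edgeR's quasi-likelihood test), depends on the scaling. On mRNA copies the difference was 0.03 with no call, and with spike-in library sizes -1.11 (adjusted p = 1.6e-06, edgeR).

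**Figure D2:**
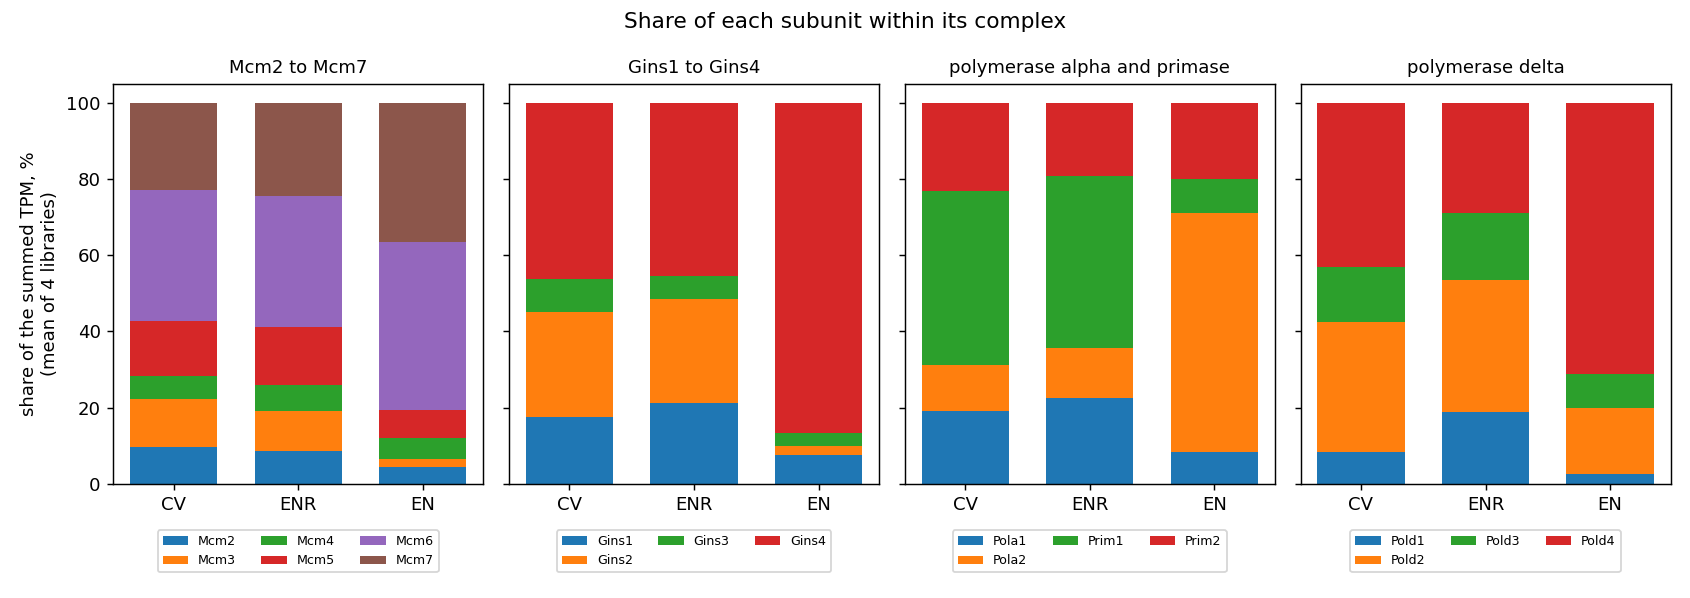
Mean share of each subunit in the summed TPM of its complex (percent, mean of 4 libraries) in CV, ENR and EN, for the helicase ring, the GINS complex, polymerase alpha with primase, and polymerase delta. In EN Gins4 takes 86.8% of GINS (46.2% in CV), Pola2 62.6% of polymerase alpha and primase, and Pold4 71.3% of polymerase delta.

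The origin recognition genes moved less than the helicase, with a median log2 fold change between EN and CV of -1.03 against -3.88 for the 11 helicase genes. Orc1, the subunit whose level is known to swing with the cell cycle, was at 3.50, 4.94, 4.11 and 5.06 CPM in CV, 7.94, 8.18, 8.35 and 6.54 in ENR and 0.134, 0.642, 0.357 and 0 in EN, from 0 to 3 counts per EN library. At that floor it was at least 6.86-fold lower in EN than in CV (mean CV level over 0.642 CPM, the highest EN floor) and called lower. Orc4 was at 77.6, 83.8, 83.8 and 77.0 CPM in CV, 58.8, 67.4, 60.7 and 57.8 in ENR and 47.2, 50.3, 53.2 and 48.2 in EN, a log2 fold change between EN and CV of -0.70 ± 0.06 (SE, adjusted p = 2.8e-08, edgeR's quasi-likelihood test), and 0.05 on mRNA copies with no call. With spike-in library sizes the Orc4 change between EN and CV was -1.12, with a call. Orc4, Orc3 and Orc2 were highest in CV, by 0.40, 0.37 and 0.31 over ENR, whereas Orc1 and Orc5 were lower in CV by -0.81 and -0.35. Under spike-in library sizes Orc2 to Orc4 stayed higher in CV without a call. The call of Orc1 between CV and ENR (adjusted p = 0.0088, edgeR's quasi-likelihood test) was lost when any single CV or ENR library was left out (adjusted p from 0.011 to 0.028). On mRNA copies Orc4 was higher in EN than in ENR, by 0.71 with a call, against -0.30 on counts. With spike-in library sizes it was lower in EN than in ENR, at -0.83 with a call. Orc5 fell by 0.84, Orc3 by 1.03 and Orc2 by 1.78 on the log2 scale between CV and EN.

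Mcm8, Mcm9 and Mcm10 are not part of the ring: Mcm10 helps start the helicase, and Mcm8 and Mcm9 are known for work in recombination. Mcm10 was at 26.5, 26.8, 24.8 and 30.2 CPM in CV, 60.9, 63.5, 64.2 and 59.5 in ENR and 7.77, 6.85, 6.24 and 9.07 in EN, so that EN stood 1.84 below CV in log2 terms. Mcm9 was at 7.82, 9.34, 7.16 and 7.47 in CV, 19.1, 12.6, 12.8 and 16.4 in ENR and 10.1, 9.85, 10.2 and 7.77 in EN. The CV and EN libraries of Mcm9 overlapped, and the log2 fold change between them was 0.25 ± 0.16 (SE, adjusted p = 0.17, edgeR's quasi-likelihood test), the only positive one of the 48. It was -0.05 on log2(TPM + 1) and -0.17 with spike-in library sizes, without a call, and 0.63 on mRNA copies, with a call. ENR was highest for all 3 of these genes. Mcm8 fell by 1.48 between CV and EN. All 3, with Mcm5, Gins1, Rpa1 and Tyms, carried decimal counts in at least 11 of 12 libraries, which arise when reads are shared with another transcript, so their levels are less certain.

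Pcna, the sliding clamp, had the highest level per length of all members in each culture, 500 ± 16.5 TPM (SD, n = 4) in CV, 449 ± 9.44 in ENR and 160 ± 4.98 in EN. In CPM it was at 346, 343, 356 and 322 in CV, 348, 340.3, 348 and 332 in ENR and 140.4, 138, 134 and 135 in EN. CV and ENR overlapped (log2 fold change 0.00 ± 0.04, adjusted p = 0.96 in edgeR's quasi-likelihood test, but 0.15 with a call for CV on log2(TPM + 1)), and all EN libraries lay below. The fall in counts to EN was 2.50-fold from either culture, the log2 fold changes being -1.32 against CV and -1.32 against ENR (SE 0.04 each), and was smaller than that of any gene of the ring. On mRNA copies the differences were -0.57 against CV and -0.55 against ENR and were not called (adjusted p = 0.07 and 0.074, limma). With spike-in library sizes they were -1.73 and -1.84, both called. The loader genes Rfc1 to Rfc5 fell by 1.18 (Rfc5) to 2.20 (Rfc4) between CV and EN. Rfc4 was at 22.2, 21.5, 26.1 and 25.7 CPM in CV, 37.4, 38.1, 35.8 and 39.5 in ENR and 5.63, 3.43, 4.82 and 6.33 in EN. Rfc5 was at 43.8, 38.4, 41.9 and 43.5 in CV, 58.5, 65.0, 65.6 and 60.0 in ENR and 17.3, 18.8, 17.1 and 20.4 in EN. No EN library of either gene reached the CV or ENR range. Rfc3 fell by 1.33, Rfc2 by 1.34 and Rfc1 by 2.01, and between CV and ENR only Pcna and Rfc1 of this group were not called.

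Partners among the polymerase and primase genes fell by very different amounts. The log2 fold changes between EN and CV were -5.30 for Prim1 and -3.26 for Prim2, the primase subunits, -4.22 for Pola1, the catalytic subunit of polymerase alpha, and -0.67 for its partner Pola2. Pola2 thus held 12.2% ± 1.18 (SD, n = 4) of the summed TPM of polymerase alpha and primase in CV, 13.2% ± 0.837 in ENR and 62.6% ± 3.91 in EN, without overlap between EN and the others. Prim1 went the other way, from 45.5% ± 2.21 in CV to 9.05% ± 3.17 in EN. Between EN and CV, Pola2 was at 0.07 on mRNA copies with no call and at -1.09 with spike-in library sizes with a call.

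Pole2, a polymerase epsilon subunit, was at 9.70, 12.3, 10.3 and 12.7 CPM in CV, 17.7, 19.6, 16.2 and 21.8 in ENR and 0.402, 0.214, 0 and 0.288 in EN, from 0 to 3 counts in each EN library. It was at least 17.5-fold lower in EN than in CV, with the same floor of 0.642 CPM. Its partners Pole3 and Pole4, histone-fold proteins, were at -0.69 ± 0.14 (SE, called) and -0.20 ± 0.07 (adjusted p = 0.012, edgeR's quasi-likelihood test, just missing the threshold). Between EN and CV on mRNA copies, Pole3 was at 0.02 and Pole4 at 0.56 (adjusted p = 0.034, limma), neither called. With spike-in library sizes Pole3 was at -1.09, with a call. Pole4 was called lower on log2(TPM + 1), at -0.50 (adjusted p = 1.6e-06, limma), and with spike-in library sizes, at -0.62 (adjusted p = 0.0032, edgeR). Pole, the catalytic subunit, is not among the 48 but was at -4.62 ± 0.16 between EN and CV.

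Polymerase delta showed the same divide. The catalytic Pold1 fell by 2.55, Pold2 by 1.78 and Pold3 by 1.53 between CV and EN, while Pold4, the smallest accessory subunit, was at 37.7, 37.4, 37.0 and 35.9 CPM in CV, 23.4, 24.5, 21.1 and 24.3 in ENR and 32.6, 36.2, 39.4 and 33.8 in EN. CV and EN overlapped for Pold4 and ENR lay below both. Its log2 fold change was -0.06 ± 0.07 (SE) between EN and CV, 0.60 ± 0.07 between EN and ENR and 0.66 ± 0.07 between CV and ENR, with adjusted p of 0.4, 1.9e-06 and 8.4e-07 in edgeR's quasi-likelihood test. The size between EN and CV depends on the scale: it was 0.75 with a call on mRNA copies and -0.39 with a call on log2(TPM + 1). Under spike-in library sizes the difference between EN and ENR was 0.08 with no call. Pold4 held 43.0% ± 1.81 of the summed polymerase delta TPM in CV, 28.9% ± 1.42 in ENR and 71.3% ± 1.66 in EN.

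Rpa1 to Rpa3 form the complex that coats single-stranded DNA. Rpa1 was at 152, 146, 151 and 155 CPM in CV, 127, 141, 131 and 134 in ENR and 23.3, 23.1, 23.7 and 24.3 in EN. Rpa3 was at 40.7, 46.4, 47.7 and 41.1 in CV, 55.2, 67.9, 56.3 and 58.9 in ENR and 12.6, 13.9, 16.2 and 18.3 in EN. EN lay below the other cultures for both, and only Rpa1 was highest in CV (0.18 over ENR, not called under spike-in library sizes). Between EN and CV the log2 fold changes were -2.67 for Rpa1, -1.93 for Rpa2 and -1.52 for Rpa3 (SE from 0.05 to 0.12).

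Fen1 trims flaps and Lig1 seals nicks on the lagging strand, Rnaseh2a removes ribonucleotides, and Top1 relaxes DNA in transcription as well as replication. Lig1 was at 20.2, 20.3, 16.4 and 21.2 CPM in CV, 40.6, 40.6, 35.1 and 35.9 in ENR and 1.88, 2.36, 2.68 and 2.02 in EN, a fall of 3.14 from CV to EN. Top1 was at 82.5, 87.8, 88.4 and 79.4 in CV, 86.9, 93.8, 93.1 and 102 in ENR and 73.6, 69.6, 66.2 and 73.7 in EN. The EN values of Top1 lay just below those of CV, with a log2 fold change of -0.25 ± 0.06 (SE, adjusted p = 0.00099, edgeR's quasi-likelihood test), which missed the threshold in DESeq2 (-0.19, adjusted p = 0.011) and was 0.52 on mRNA copies with no call. With spike-in library sizes the Top1 change was -0.66 (adjusted p = 0.0011, edgeR), with a call. Fen1 fell by 2.87 and Rnaseh2a by 1.27.

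The nucleotide supply genes fell by more than the median member, except Tyms. Rrm2, the small subunit of ribonucleotide reductase, was at 46.2, 45.0, 43.3 and 56.3 CPM in CV, 40.8, 44.2, 48.4 and 42.9 in ENR and 1.61, 1.499, 3.03 and 1.30 in EN. Rrm1, the large subunit, was at 128, 125, 119 and 132 in CV, 183, 199, 187 and 182 in ENR and 7.50, 9.85, 11.1 and 8.06 in EN. CV and ENR overlapped for Rrm2 (0.12 ± 0.10, adjusted p = 0.31, edgeR's quasi-likelihood test) but not for Rrm1, which was lower in CV by -0.57. Against CV, EN was at -4.70 ± 0.17 (SE) for Rrm2 and -3.82 ± 0.08 for Rrm1, and the summed level of the enzyme went from 89.3 ± 7.31 TPM (SD, n = 4) in CV and 100.4 ± 4.17 in ENR to 4.17 ± 0.938 in EN.

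Tk1, the salvage kinase for thymidine, was at 29.5, 26.8, 26.9 and 25.5 CPM in CV, 72.8, 79.2, 77.1 and 79.9 in ENR and 4.56, 1.93, 3.21 and 2.45 in EN. Dut, which hydrolyses dUTP, was at 41.5, 51.7, 47.2 and 47.5 in CV, 88.5, 103, 88.7 and 87.2 in ENR and 4.56, 5.35, 4.28 and 5.33 in EN. Both had separate cultures in the order ENR, CV, EN, and Tk1 had the largest difference between CV and ENR of the 48, -1.51 ± 0.09 (SE). Against CV, EN was at -3.27 for Dut and -3.10 for Tk1. Tyms, thymidylate synthase, was at 93.5, 90.8, 93.2 and 72.3 CPM in CV, 134, 145, 148 and 143 in ENR and 54.8, 86.3, 83.3 and 46.5 in EN. The EN libraries split into a higher and a lower pair, the higher ones above the lowest CV library, and the difference from CV was -0.39 ± 0.15 (adjusted p = 0.027, edgeR's quasi-likelihood test). Without EN replicate 2 it was -0.52 (adjusted p = 0.0048) and without EN replicate 3 -0.52 (adjusted p = 0.0061), while without EN replicate 1 it was -0.30 (adjusted p = 0.096) and without EN replicate 4 -0.25 (adjusted p = 0.097), all in edgeR. On mRNA copies it was 0.36 (adjusted p = 0.25, limma), not called, but Tyms was called lower at -0.70 on log2(TPM + 1) (adjusted p = 0.0016, limma) and at -0.83 with spike-in library sizes (adjusted p = 3.2e-05, edgeR). All 12 Tyms values carried decimals, so reads were shared with another transcript.

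**Figure D3:**
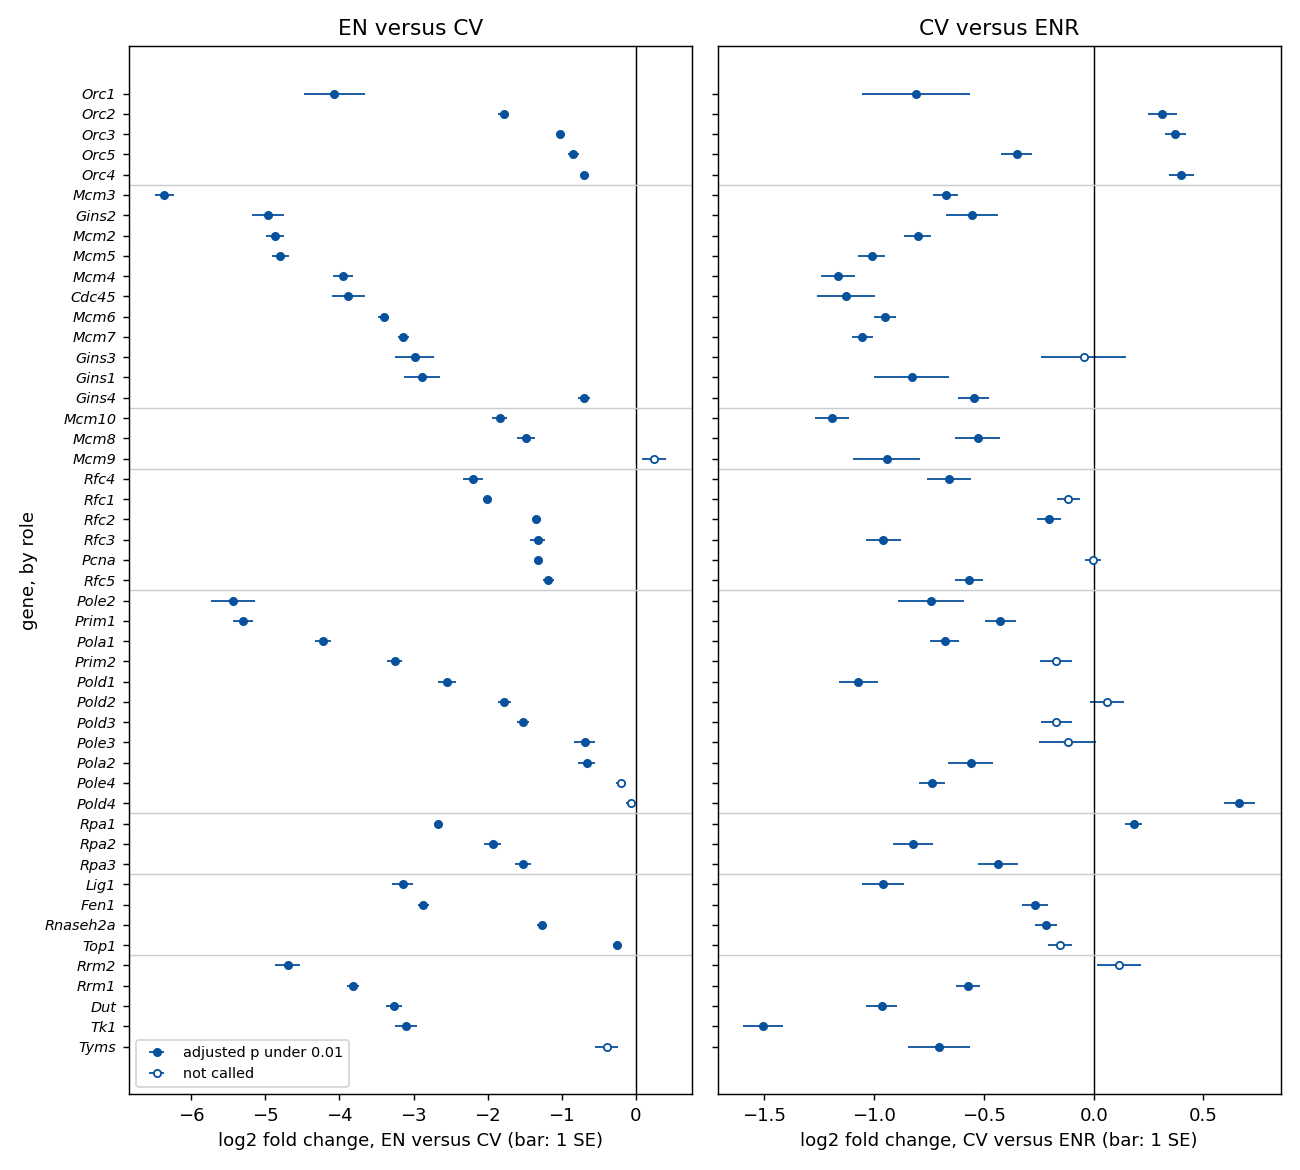
Log2 fold change (horizontal axis) of each of the 48 genes by role (vertical axis) for EN versus CV and for CV versus ENR, from edgeR, with bars of 1 SE and filled points at an adjusted p under 0.01. EN versus CV runs from -6.36 for Mcm3 to 0.25 for Mcm9, and CV versus ENR from -1.51 for Tk1 to 0.66 for Pold4. The points of Orc1 and Pole2 in EN versus CV depend on the prior count, as EN was at the counting floor. On mRNA copies Gins4, Orc4, Pola2, Pole3, Pold4, Pole4, Top1 and Tyms are also above 0 in EN versus CV. With spike-in library sizes no gene is.

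In levels per length the order of the members changed with the culture. In CV Pcna was followed by Rpa3 (147 TPM), Mcm6 (97.6) and Rpa1 (82.5), and in ENR by Rpa3 (179), Mcm6 (169) and Mcm7 (121). In EN Pcna was followed by Pold4 (59.0 TPM), Rpa3 (40.5 ± 7.47, SD), Pole3 (27.2 ± 5.82), Top1 (24.3 ± 1.496) and Tyms (23.6 ± 6.77), the last 3 of which do not differ beyond their spread. The median member was at 33.3 TPM in CV, 42.1 in ENR and 5.93 in EN. In EN 9 members were under 1 TPM (Lig1, Mcm4, Cdc45, Mcm2, Gins3, Gins2, Mcm3, Pole2 and Orc1), and none was in CV or ENR.

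Other genes of the same pathways were counted from lists that were chosen with earlier results of these data known. Beside the counts of these lists, 41.2% of all transcripts tested were lower and 35.2% higher between EN and CV. Between CV and ENR 29.8% of all transcripts were lower and 30.2% higher. The fork accessory list also holds Pole, Dnmt1 and Uhrf1, and shares Topbp1 with the licensing and firing list. All its 22 tested transcripts, of 20 genes, were lower in EN than in CV (median log2 fold change -2.90). Among them Uhrf1 was at -5.73 and Clspn, a checkpoint adaptor, at -4.40. Of the licensing and firing list 4 of 5 were lower, with Cdt1 at -1.49, its inhibitor Gmnn at -1.64 and Mcmbp, at -0.10, not called. Of the chromatin assembly list 12 of 13 transcripts were lower and Tonsl was higher (1.09 ± 0.14). All 16 transcripts of the mitosis list were lower (median -3.73). Between CV and ENR the same lists had 16 of 22, 4 of 5, 11 of 13 and 15 of 16 transcripts lower, with 1 higher, Donson.

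The wider nucleotide synthesis list had 24 of 29 transcripts lower in EN than in CV (median -2.34). Ctps was at -4.08, Cad, the first enzyme of pyrimidine synthesis, at -3.31, and Gart, of purine synthesis, at -3.35. Between CV and ENR this list had 7 transcripts lower, 8 higher and 14 not called, near the 29.8% lower and 30.2% higher of all transcripts. Its median of -0.02 became 0.23 on mRNA copies. On the salvage and breakdown list 3 of 5 transcripts were higher in EN than in CV, among them 1 of Samhd1, a dNTP hydrolase, at 1.78, and Nt5c at 1.20, while Dck, the deoxycytidine kinase, was at -2.29.

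Of the list of G1/S control genes 15 of 22 were lower in EN than in CV and 4 were higher (median -1.29). Ccna2 was at -4.68, Ccnd1 at -4.11 and Cdk2 at -1.88. Higher in EN on counts were Rbl2 (0.78), Rb1 (0.30), Cdc25a (0.34) and Tfdp2 (1.43), and Cdkn1a, the p21 inhibitor, was at 0.08 with no call. The list's median between EN and CV was -1.71 with spike-in library sizes and -0.57 on mRNA copies. Small changes such as those of Rb1 and Cdc25a are given on counts only and may depend on the scaling. Between CV and ENR 7 were higher, among them Cdkn1a by 1.15 and Ccnd2 by 1.30, and 10 lower, beside 30.2% and 29.8% of all transcripts. The list's median of -0.10 between CV and ENR turned to 0.15 on mRNA copies.

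Chromatin at the start sites of these genes was compared between EN and CV. For 47 of 48 members a region of the deposited peak union lay within 500 bp of an annotated mm9 start, and the region with the highest H3K4me3 stood for the gene. Mcm3 had none and is not analysed here. In 9 cases the region also lay at the start of another gene, such as Prkdc beside Mcm4, and cannot be told apart from it. Values are the normalized scores per region deposited by the authors, tested by limma on log2(score + 1) at an adjusted p under 0.05. On simulated ATAC scores with an assumed spread and 200 of 94166 regions changed, this fit found 0% of 2-fold and 98% of 4-fold changes. Once the spread was allowed to follow the mean score, it found 71% and 100%. These shares hold for those settings and do not give the power here, as the same fit called changes under 2-fold in the data. Fits with that trend are given beside it.

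For ATAC, 9 member regions were lower in EN than in CV and 5 higher, where 8.72% and 15.5% of the 7417 start-site regions of all genes in the RNA table were. With the trend the members gave 11 lower and 6 higher, beside 12.5% and 25.3% of all start-site regions. The lower ones lay at Mcm6, Orc1, Pola2, Pold3, Pole2, Prim1, Rfc1, Tk1 and Tyms, and the higher ones at Gins4, Orc3, Orc4, Rfc3 and Rpa3. At the Rfc1 start (mm9, chromosome 5, 65725902 to 65727176) the ATAC scores were 51, 66, 56 and 64 in CV, 37, 37, 34 and 36 in ENR and 30, 31, 27 and 22 in EN, which put EN at -1.08 ± 0.17 in log2 against CV (SE, adjusted p = 0.000373, limma). At the Rpa3 start (mm9, chromosome 6, 8208214 to 8210199) they were 242, 216, 214 and 183 in CV, 258, 207, 225 and 208 in ENR and 359, 381, 404 and 341 in EN, which put EN at 0.80 ± 0.16 in log2 against CV (adjusted p = 0.0022, limma). EN was below CV without overlap at Rfc1 and above it at Rpa3, although the RNA of both genes fell. Calls on both sides are sensitive: without CV replicate 2 or without EN replicate 3 only 3 members were higher. Under quantile normalization 3 were higher and 16 lower. At the study's own stricter threshold, applied here to limma where the paper used DESeq2, none was called. Shares over all start-site regions were not counted under these settings.

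The median member region changed by -0.04 in ATAC, with all start-site regions at 0.09. Of the 24 members with a region whose RNA fell more than 4-fold from CV to EN, 19 had an ATAC change within 0.5 on the log2 scale, among them Gins2 (0.24 ± 0.16), Mcm2 (0.27 ± 0.18), Mcm5 (0.06 ± 0.17) and Pola1 (0.00 ± 0.21). Over all genes with such an RNA fall the count was 438 of 757. Across the 47 members Spearman's rho between the RNA and ATAC changes was 0.142, and across the 7827 genes with both it was 0.246, a description over genes that share the same libraries.

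H3K27ac, a mark of active promoters and enhancers, gave no member call in either direction by limma at these start sites, where 1.05% of the regions of all genes were higher and 0.512% lower. At an unadjusted p under 0.05, 6 members were lower and 0 higher, beside 5.5% and 21.9% of all regions. With the trend 3 were called lower and 1, Top1, higher, beside 3.4% and 25.6%. The 3 were Mcm5 (-1.41 ± 0.44), Mcm6 (-1.73 ± 0.44) and Rrm2 (-1.37 ± 0.47), with adjusted p in limma with the trend of 0.0108, 0.00195 and 0.0372. At Mcm6 the H3K27ac scores were 41, 71 and 73 in CV, 91, 82 and 87 in ENR and 25, 13 and 16 in EN. The EN values lay below the CV ones. The median member was at 0.02 and all start-site regions at 0.41. Spearman's rho with the RNA change was 0.448 over the 47 members and 0.513 over all genes. Of the 24 members whose RNA fell more than 4-fold, 14 had an H3K27ac change within 0.5, as had 267 of 757 genes with such a fall.

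H3K4me3, the mark of promoters, likewise gave no member call by limma, with or without the trend, where 2.24% of all start-site regions were higher and 2.17% lower without it and 6.78% and 2.57% with it. At an unadjusted p under 0.05, 3 members were higher and 4 lower, beside 20.9% and 6.97% of all regions. The median member changed by -0.10 and all regions by 0.18. Tk1 had the lowest difference, -1.57 ± 0.55 (SE, adjusted p = 0.176, limma), with scores of 33, 42 and 42 in CV, 46, 46 and 41 in ENR and 4, 16 and 27 in EN. Of the 24 members whose RNA fell more than 4-fold, 21 had an H3K4me3 change within 0.5, against 437 of 755 over all genes.

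H3K27me3, the Polycomb mark of repressed genes, was scored over regions that the authors had extended. Member means ranged from 1.33 to 21.7 over the cultures, no member was called by limma in either direction, and the share over all start-site regions was 0.0% higher and 0.0% lower. At an unadjusted p under 0.05, 1 member, Pcna (1.48 ± 0.72, SE), was higher and 0 were lower, beside 4.33% and 0.822% of all regions. With the trend no member was called, where 0.0809% of all regions were higher and 0.0404% lower. The median member was at 0.26 and all regions at 0.23.

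**Figure D4:**
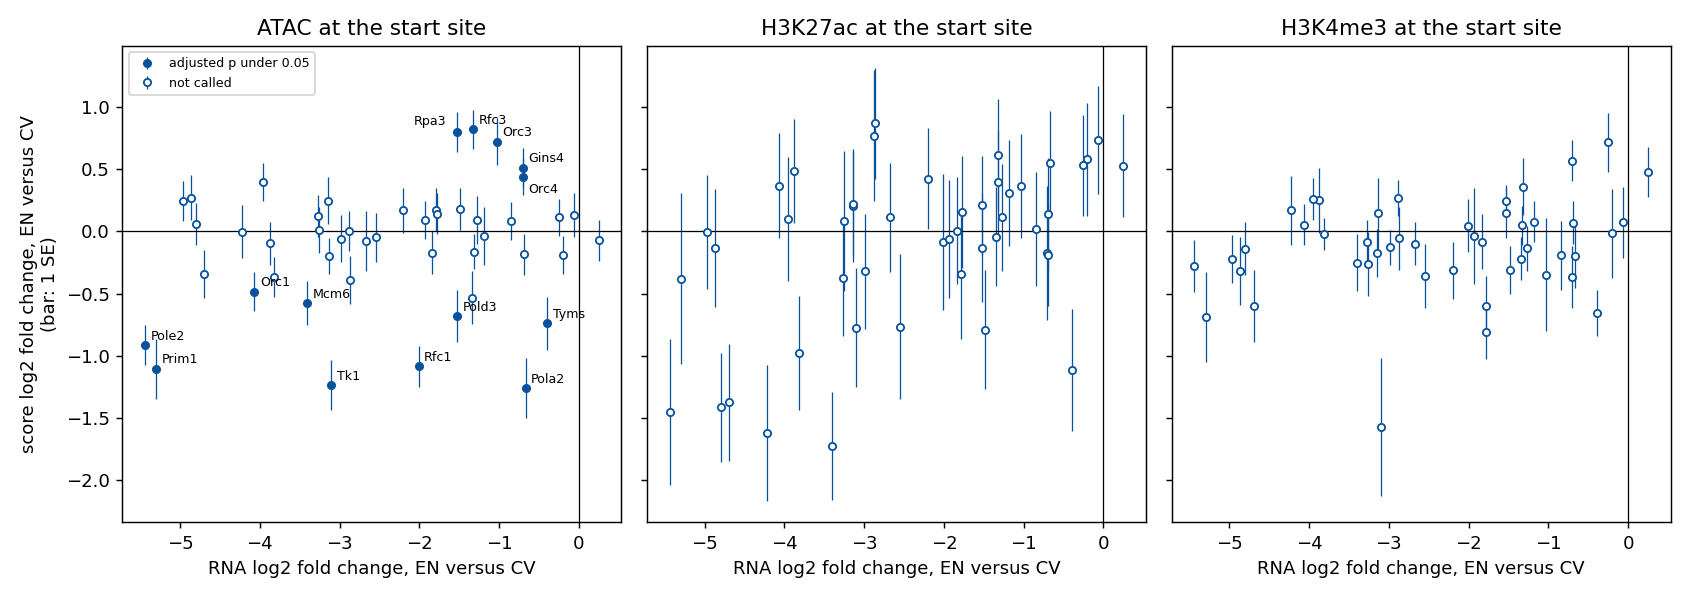
Change between EN and CV in the ATAC, H3K27ac and H3K4me3 score at the start site (vertical axis, log2, bars of 1 SE) against the change in RNA (horizontal axis, log2) for the 47 genes with a region. Filled, named points have an adjusted p under 0.05 in limma: 9 below and 5 above 0 in ATAC and none in the marks, while RNA changes reach -5.44 for Pole2, whose value depends on the prior count.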

How the data were processed

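RNA-seq of 12 libraries (4 per culture) had been quantified by the authors with kallisto (0.43.0 per the submitters' processing notes) into estimated counts, with TPM deposited beside them. The mRNA copies deposited by the authors were set from spike-ins added to a fixed amount of total RNA. The region scores are read counts that the authors normalized between libraries and rounded, over a union of MACS2 peaks (2.0 per the same notes) from BWA alignments to mm9, with duplicates removed with Picard. The method of that normalization is not given in the sources used here.

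Counts were rounded and tested with edgeR 4.0.16 (R 4.3.3), keeping transcripts detected in 4 or more libraries, and scores with limma 3.58.1 on log2(score + 1). Depth was 5630951 to 8859744 counts per library, and floors cover counting error only. Identical libraries were not found. On simulated data (9279 transcripts, 200 of them changed, with an assumed spread) edgeR found 98% of 2-fold changes between EN and CV, with 3 false calls. Alternatives were DESeq2 1.42.0, RLE, other filters, TPM, copies, spike-in sizes, a replicate block, other thresholds and leaving out each library. Genes were named by role: the members with the largest and smallest changes in each role group, and well-known ones such as Pcna. The members and lists were chosen with earlier results of these data known. Tables were joined with Python 3.11.15. A table of Hnf4g binding was not used here.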

Additional observations from a re-analysis of the deposited data

Results flagged for a closer look

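In 144 groups of 4 libraries, 6 held a library whose gap to its nearest neighbour exceeded Dixon's limit for its share of the group's range, which chance passes in about 1 of 20 groups. Mcm8 was at 18.2 CPM in ENR replicate 2, above the other ENR libraries, and Dut at 103.1 CPM in the same library. Mcm9 was at 7.77 CPM in EN replicate 4, below the others. Rfc1 was at 77.7 CPM in CV replicate 4 and at 15.9 CPM in EN replicate 3. Tyms was at 72.3 CPM in CV replicate 4, below the other CV libraries.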

How the results depend on the processing

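Counts of members called in RNA moved by more than 1.5 times under spike-in based scalings alone. On mRNA copies 2 members were higher in EN than in CV, 2 higher in EN than in ENR, 1 higher in CV than in ENR and 6 lower in CV than in ENR, and under spike-in library sizes 0 were higher in EN than in ENR and 0 in CV than in ENR. The shares of all transcripts, in the same order, were 46.6%, 57.8%, 13.6% and 4.27% on copies. Under spike-in library sizes they were 11.8% and 11.2%. Leaving out 1 library gave 44 to 46 members lower in EN than in CV, 47 lower in EN than in ENR and 32 to 34 lower in CV than in ENR. On copies the sign turned between EN and CV for Pola2 (0.0675), Top1 (0.52), Pole3 (0.0206), Gins4 (0.0332), Pold4 (0.75) and Orc4 (0.0519), as for Tyms (0.36) and Pole4 (0.56), neither called on counts or copies, and between EN and ENR for Orc3 (0.35), Top1 (0.59), Pole3 (0.0866), Pole4 (0.0175), Orc4 (0.71) and Mcm9 (0.31). Under spike-in library sizes no member had a positive difference between EN and CV. Pcna turned to 0.15 between CV and ENR on log2(TPM + 1) and on log2(TPM + 5). The cause was not tested.

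Replicate numbers were not taken to pair the samples. Deviations of same-numbered RNA libraries correlated by 0.0133 on average (-0.0590 to 0.0955) and of others by -0.00442. All same-numbered ATAC pairs were positive, at 0.170 (0.0695 to 0.460) against -0.0557 for others, but not every pair was over 0.1. With the replicate block 44 members were lower in EN than in CV, 47 lower and 1 higher in EN than in ENR, and 33 lower and 5 higher in CV than in ENR, and the call lost was Orc1 between CV and ENR (adjusted p = 0.021, edgeR). In ATAC it gave 4 higher and 8 lower, with no share over all start-site regions counted.

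At start sites, ATAC gave 3 higher and 16 lower under quantile normalization, 0 and 0 at the study's threshold, and 3 to 6 higher and 6 to 9 lower without 1 library. H3K27ac gave 1 higher and 3 lower with the trend, 3 lower with a pseudocount of 5 and 1 lower under quantile normalization. H3K4me3 gave 1 higher and 1 lower with a pseudocount of 5, and 0 to 1 lower without 1 library. Of these settings only the trend had shares over all start-site regions counted, so the other counts have no background beside them. Depth limits Orc1, Pole2, Gins2 and Mcm3, which had at most 6 counts in any EN library.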
